A study of Mus musculus with 8 samples.

Results

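The messenger RNA of 37 lymphocyte genes was followed in the mammary epithelium of pregnant mice. The genes were chosen by name, as markers of B cells (11 genes), T cells (15), natural killer (NK) and cytotoxic cells (8) and plasma cells (2), with Ptprc, the CD45 antigen of all leukocytes, as the last. All 37 had an entry among the 55933 genes measured. RNA-seq was performed on 4 control mice and 4 mice labelled cKO (conditional knockout), with 1 library per mouse, all C57BL/6 females at pregnancy day 14.5. The cKO mice carried K14-rtTA, teto-Cre and Bmpr1a fl/fl and received doxycycline in their drinking water. In this model the K14 promoter, which is active in the myoepithelial layer, drives the doxycycline-dependent activator that switches on Cre. The controls were littermates, labelled WT, and neither their alleles nor their exposure to doxycycline is given in the sources used here. Glands were digested with collagenase and hyaluronidase, and red cells were lysed. No sorting or depletion of CD45-positive cells is described for these libraries, so each holds the RNA of every cell left in the epithelial preparation. Levels are in FPKM, which counts fragments relative to gene length and sequencing depth.

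Lymphocytes reach the mammary gland from the blood, and a lymph node lies in the fat pad of the inguinal gland. Whether this node was removed before digestion is not described. B cells display immunoglobulin on their surface and signal through the paired chains CD79A and CD79B, whereas plasma cells, which derive from them, secrete it. T cells signal through the CD3 complex and the kinases LCK and ZAP70, and cytotoxic T cells and NK cells kill with granzymes and perforin. In the lactating gland, plasma cells supply the antibody of milk. In bulk RNA, fewer cells of a type and less RNA per cell cannot be told apart.

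The targeted gene, Bmpr1a, stood at 10.6, 11.7, 8.74 and 9.52 FPKM in the 4 controls and at 12.01, 12.03, 10.2 and 10.4 FPKM in the 4 libraries labelled cKO. Its RNA was not lower there, so the values do not check the labels by this gene, and each direction below is that of the libraries as labelled. The value covers the whole gene and all cells of the preparation, not the deleted part in myoepithelium alone. Reads on genes numbered 16123108 to 19896988 per library. Epithelial identity was clear from 7 epithelial genes, whose summed FPKM was 5951 to 7610 in control and 5678 to 7450 in cKO libraries, with Krt8, a luminal keratin, at 1444 to 2109. The 37 lymphocyte genes together summed to only 20.51 to 107 FPKM, from 931 to 4832 reads per library.

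The summed levels of B, T and plasma cell genes were highest in control replicates 3 and 1. Those of NK and cytotoxic genes were highest in control replicate 3 and cKO replicate 4, which were level. Summed over the 11 B cell genes, the level was 15.4, 5.52, 33.0 and 3.40 FPKM in control replicates 1 to 4, and 3.07, 3.05, 1.80 and 2.92 FPKM in cKO replicates 1 to 4. Every control sum was thus above every cKO sum, with control replicate 4 nearest to them. The sum in control replicate 3 was 12.2 times the cKO mean, that in control replicate 1 was 5.69 times it, and that in control replicate 4 was 1.25 times it. The 15 T cell genes summed to 14.4, 7.19, 25.6 and 7.003 FPKM in the controls and 6.85, 4.74, 5.18 and 7.13 FPKM in the cKO libraries. Here control replicates 2 and 4 lay beside the highest cKO library, and the groups overlapped. For the 8 NK and cytotoxic genes the sums were 21.1, 18.05, 22.7 and 21.6 FPKM in the controls and 21.3, 11.1, 10.2 and 22.7 FPKM in the cKO libraries. The cKO libraries were split, with replicates 1 and 4 at the level of the controls and replicates 2 and 3 below all of them. The 2 plasma cell genes summed to 7.06, 2.62, 23.3 and 5.13 FPKM in the controls and 3.40, 3.06, 2.58 and 4.15 FPKM in the cKO libraries, with control replicate 3 far above the other libraries.

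**Figure D1:**
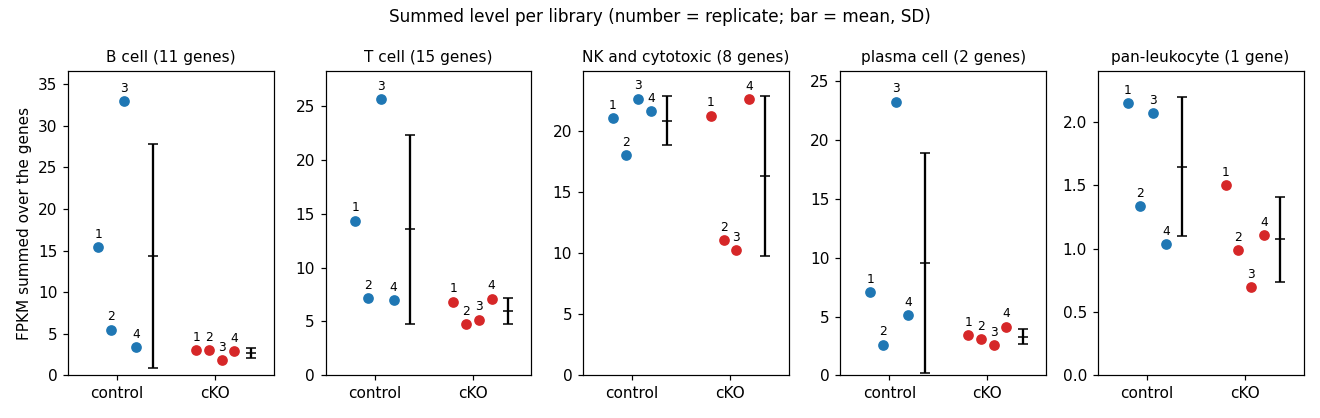
FPKM summed over the genes of each class (vertical axis, FPKM) for the 4 control (blue) and 4 cKO (red) libraries. Numbers are replicates and the bar beside each group is its mean and SD. Control replicate 3 is highest for B cell (33.0), T cell (25.6) and plasma cell genes (23.3). For NK and cytotoxic genes it is level with cKO replicate 4 (22.7). There cKO replicates 2 and 3 (11.1 and 10.2) lie apart from the other 6 libraries (18.05 to 22.7).

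For B, T and plasma cell genes the SD among the control sums was larger than the difference between the group means, and for NK and cytotoxic genes it was smaller. Summed over the B cell genes, the controls averaged 14.3 ± 13.5 FPKM and the cKO libraries 2.71 ± 0.611 FPKM (SD, n = 4 each), a coefficient of variation of 94.1% against 22.5%. For the T cell genes the means were 13.5 ± 8.74 and 5.98 ± 1.19 FPKM (SD, n = 4 each). The NK and cytotoxic genes had the opposite spread, with 20.9 ± 1.99 FPKM in control and 16.3 ± 6.56 FPKM in cKO libraries (SD, n = 4 each). Of the 37 genes, 28 were highest in control replicate 3. For counts of the single highest library, here and below, no share of all genes was computed. Of the 37, 25 had control replicate 3 first and control replicate 1 second among the 8 libraries. Of the 21 members that entered the test, 15 had this order, where 3.17% of all genes tested had it. Of these 15, 10 had a cKO mean under 0.5 FPKM and entered the test through the level of the controls, so the share of all genes is no measure for them. By class this order was seen in 11 of 11 B cell genes, 13 of 15 T cell genes, 1 of 2 plasma cell genes and 0 of 8 NK and cytotoxic genes. The ratio of control replicate 3 to the cKO mean had a median of 15.5 over the B cell genes (range 7.27 to 55.3), 4.54 over the T cell genes (1.82 to 8.32) and 1.495 over the NK and cytotoxic genes (1.18 to 8.87).

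**Figure D2:**
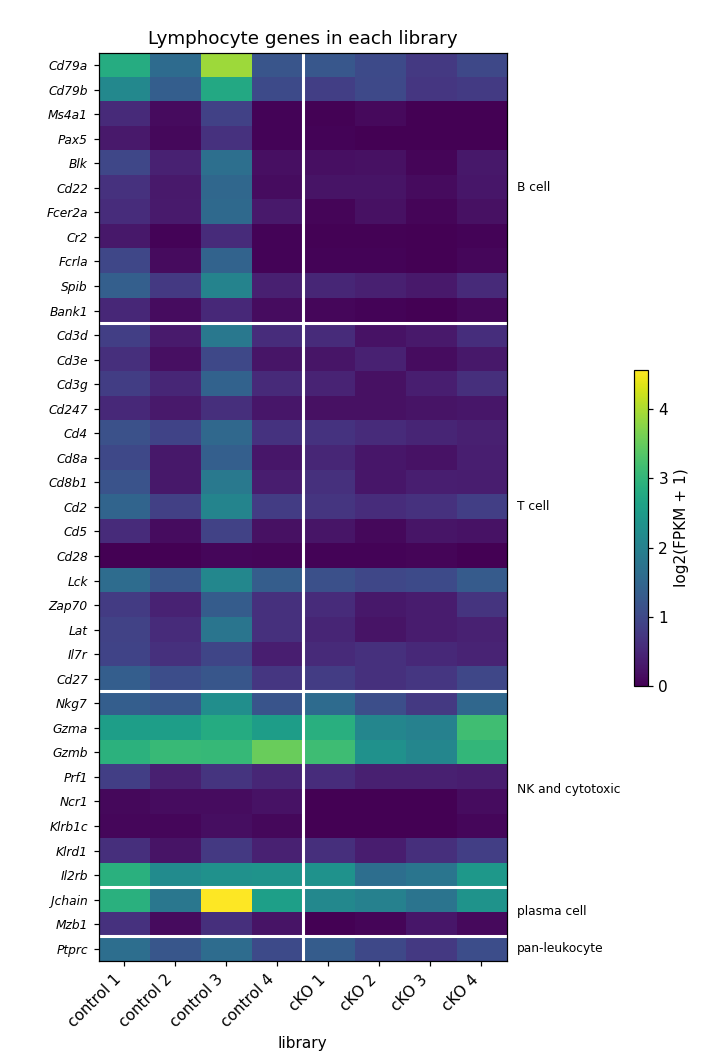
Heat map of log2(FPKM + 1) of the 37 genes (rows, grouped by class) in the 8 libraries (columns). Brighter cells are higher. Columns control 1 and control 3 are the brightest for nearly all B and T cell genes, from 6.06 and 13.97 FPKM of Cd79a downwards, whereas Gzma and Gzmb are bright in all 8 libraries.

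Ratios between classes within a library do not depend on how the libraries were scaled. B cell over T cell FPKM was 1.07 and 1.29 in control replicates 1 and 3. In control replicates 2 and 4 it was 0.767 and 0.485, and in the cKO libraries it was 0.347 to 0.644. B cell genes thus weighed more, relative to T cell genes, in the same libraries in which both were high. NK and cytotoxic over T cell FPKM ran the other way, with 1.47 and 0.885 in control replicates 1 and 3 and 1.98 to 3.18 in the other 6 libraries.

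The test of control against cKO was limma on log2(FPKM + 1) over the 15143 genes with a mean of at least 0.5 FPKM, and log2 fold changes are given on that scale, where weakly expressed genes appear to change less than they did. Of the 37 lymphocyte genes, 21 passed this filter and 16 did not. Of the 21, 10 had a cKO mean under 0.5 FPKM and so passed through the level of the controls. None of the 21 had an adjusted p under 0.05 (Benjamini-Hochberg over all genes tested), and the lowest was 0.174, for Cd4. Over all genes tested, 0.304% were lower in cKO at an adjusted p under 0.05. At an unadjusted p under 0.05, 7 of the 21 were lower in cKO (Cd79a, Cd79b, Spib, Cd4, Cd2, Lck and Lat) and 0 were higher, against 7.53% of all genes tested that were lower. The log2 fold change was negative for 21 of 21, with a median of -0.47, where 49.8% of all genes tested were negative with a median of 0.00. Counting every member, filter or not, the cKO mean was below the control mean for 36 of 37, and Klrd1 was the exception.

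Every cKO library lay below every control library for 3 of the 21 genes tested (Cd79b, Cd4 and Lat), where 4.6% of all genes tested were so placed, and for 3 more under the filter (Fcer2a, Bank1 and Klrb1c). Cd4 and Lat had a cKO mean under 0.5 FPKM and entered the test through the controls. The call of these genes rested in part on single libraries. Of the 7 genes at an unadjusted p under 0.05, only Cd4 and Cd79b kept it whichever 1 of the 8 libraries was left out. Without control replicate 1 these were the 2 left, and without control replicate 3 there were 4 left (Cd4, Cd79a, Cd79b and Lat). Without cKO replicate 3 there were again 2, Cd4 and Cd79b, and without cKO replicate 2 there were 3, with Cd79a. Left out in turn, the other libraries gave 13 members at an unadjusted p under 0.05 without control replicate 2, 12 without control replicate 4, 6 without cKO replicate 1 and 7 without cKO replicate 4. Over all 15143 genes these 8 fits gave 2047 to 2515 genes at an unadjusted p under 0.05 in either direction. With all libraries there were 2480, so a count of 2 or 3 of 21 is near the share of all genes. Fold changes moved less than calls. The median log2 fold change of the B cell genes tested was -0.85, and -0.75 without control replicate 1 and -0.81 without cKO replicate 3. For the T cell genes tested it was -0.47, -0.43 and -0.44. Without control replicate 3 the medians were -0.54 (B) and -0.21 (T). With both control replicates 1 and 3 left out, a choice made after the values were seen, Cd79a and Cd79b had an unadjusted p under 0.05, and 0 of 21 an adjusted one. In that fit 1544 of the 15143 genes had an unadjusted p under 0.05, a share like that of the members.

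**Figure D3:**
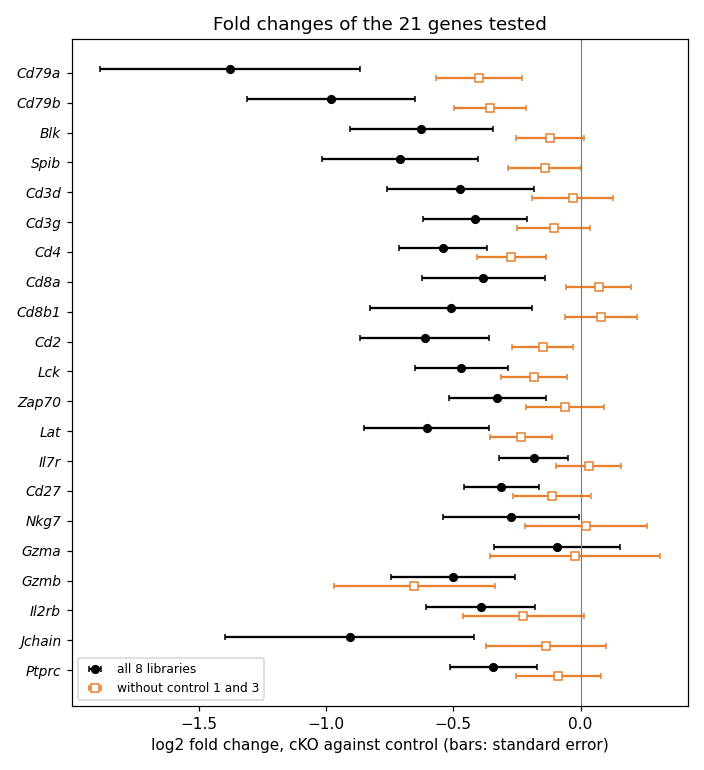
log2 fold change on the log2(FPKM + 1) scale, cKO against control, of the 21 genes tested (horizontal axis; bars are standard errors from limma), with all 8 libraries (filled) and without control replicates 1 and 3 (open). All 21 filled points lie left of 0, from -1.38 (Cd79a) to -0.09 (Gzma); without the 2 libraries Cd79a moves most, to -0.40, and Cd8a, Cd8b1, Il7r and Nkg7 lie just right of 0.

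Short stretches before the start of 3 genes are printed here, 1 of each class, to show the regulatory sequence of a B cell and a T cell gene that shared the library order and of a cytotoxic gene that did not. They are the 250 bases before the RefSeq start in GRCm38.p6, 5′ to 3′ on the strand of the gene. Capitals mark AGGAAG, the core recognised by ETS factors, in Bank1 and Lck, and AACCACA, recognised by RUNX factors, in Gzmb, each on either strand.
Bank1 (chr3:136326067-136326316, minus strand): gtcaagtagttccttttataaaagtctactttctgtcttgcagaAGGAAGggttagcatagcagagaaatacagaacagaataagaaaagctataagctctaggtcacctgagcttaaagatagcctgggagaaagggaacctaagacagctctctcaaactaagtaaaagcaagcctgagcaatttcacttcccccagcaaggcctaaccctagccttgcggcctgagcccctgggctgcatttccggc
Lck (chr4:129573642-129573891, minus strand): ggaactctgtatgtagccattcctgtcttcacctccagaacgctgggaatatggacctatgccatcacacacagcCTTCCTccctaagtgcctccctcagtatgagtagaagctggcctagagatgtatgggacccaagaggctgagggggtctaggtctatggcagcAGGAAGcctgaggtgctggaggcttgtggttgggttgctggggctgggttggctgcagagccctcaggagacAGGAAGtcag
Gzmb (chr14:56262335-56262584, minus strand): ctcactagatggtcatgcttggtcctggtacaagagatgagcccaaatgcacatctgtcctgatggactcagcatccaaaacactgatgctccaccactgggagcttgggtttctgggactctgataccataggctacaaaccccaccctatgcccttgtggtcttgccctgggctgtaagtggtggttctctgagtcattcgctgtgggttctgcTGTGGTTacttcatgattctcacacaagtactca
The ETS letters stand 206 bases before the start of Bank1 and 175, 82 and 10 bases before that of Lck, for which the upstream of its RefSeq starts was used. The RUNX letters stand 34 bases before the start of Gzmb, which had 0 matches of the ETS letters. The Lck stretch also holds 1 match of the RUNX letters, left in lower case. Nkg7, Prf1 and Klrb1c of the NK and cytotoxic class have the ETS letters too, so these are not confined to B and T cell genes. RefSeq promoters were matched by symbol for 27 of the 37 genes. AGGAAG was present before 15 of the 27 (55.6%), against 32.3% of the 27025 genes with a promoter, and AACCACA before 4 (Gzma, Gzmb, Lck and Ncr1; 14.8%), against 5.08%. The octamer ATGCAAAT, known from immunoglobulin promoters, was before 0 of the 27 and before 1.81% of all genes. The motifs do not overlap each other in these letters, they were chosen with the members known, and a match is a description and not a bound site.

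The signalling chains of the B cell receptor had the highest mean levels of the 11 B cell genes. Cd79a (ENSMUSG00000003379, chr7:24897381-24902197, GRCm38), which encodes the CD79A signalling chain of the B cell receptor, was 6.06, 2.02, 13.97 and 1.32 FPKM in control replicates 1 to 4 and 1.35, 1.04, 0.692 and 0.998 FPKM in cKO replicates 1 to 4. Control replicate 4 fell within the cKO range, and the groups overlapped. The log2 fold change was -1.38 (SE 0.51, limma adjusted p = 0.229), and it was -0.87 without control replicate 3 and -0.40 without control replicates 1 and 3. Cd79b (ENSMUSG00000040592, chr11:106311341-106314762), the partner chain, was 3.39, 1.57, 5.80 and 1.04 FPKM in the controls and 0.796, 1.02, 0.660 and 0.715 FPKM in the cKO libraries. The groups did not overlap, although control replicate 4 and cKO replicate 2 were nearly level. Its log2 fold change was -0.98 (SE 0.33, limma adjusted p = 0.191), with 15 to 139 reads per library, and -0.36 without control replicates 1 and 3.

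Spib and Blk were the other B cell genes that passed the filter. Spib (chr7:44525993-44532071), an ETS factor of B cells and plasmacytoid dendritic cells, was 1.61, 0.684, 3.10 and 0.316 FPKM in the controls and 0.397, 0.317, 0.242 and 0.451 FPKM in the cKO libraries. Control replicate 4 was below 3 of the 4 cKO libraries. Spib had a log2 fold change of -0.71 (SE 0.31, limma adjusted p = 0.295), -0.41 without control replicate 3 and -0.14 without control replicates 1 and 3. Blk, a SRC-family kinase of the B cell receptor, had a control mean of 0.903 ± 0.913 FPKM and a cKO mean of 0.139 ± 0.0716 FPKM (SD, n = 4 each), with a limma adjusted p of 0.314.

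The other 7 B cell genes stayed under the filter and were at most 0.261 FPKM outside control replicates 1 and 3. They were Ms4a1 (the CD20 antigen), Pax5 (the factor that fixes B cell identity), Cd22 and Fcer2a (an inhibitory lectin and the CD23 receptor for IgE), Cr2 (the complement receptor CD21), Fcrla (an Fc receptor-like protein) and Bank1 (a scaffold of B cell receptor signalling). In control replicate 3 they reached between 0.439 FPKM (Bank1) and 1.95 FPKM (Fcer2a), from 51 to 160 reads each. In the cKO libraries the highest value of any of the 7 was 0.214 FPKM, for Cd22 in replicate 4, from 20 reads. Pax5 had 38, 10, 86 and 5 reads in the controls and 6, 1, 0 and 1 reads in the cKO libraries. Cr2, which follicular dendritic cells also express, had 32, 4, 64 and 4 reads in the controls and 0 to 4 reads in the cKO libraries. For both genes control replicate 4 was no higher than the highest cKO library, and the groups overlapped. Antisense genes overlap exons of Pax5 and Cd22, with at most 2 and 0 reads in a library.

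Among T cell genes, the lowest p was that of Cd4. Cd4 (ENSMUSG00000023274, chr6:124864692-124888221), the coreceptor of helper T cells, was 1.19, 0.902, 1.92 and 0.595 FPKM in control replicates 1 to 4 and 0.591, 0.481, 0.390 and 0.321 FPKM in cKO replicates 1 to 4. All controls were above all cKO libraries, but control replicate 4 and cKO replicate 1 were almost equal, with 45 and 46 reads. The log2 fold change was -0.54 (SE 0.17, limma adjusted p = 0.174), and -0.27 without control replicates 1 and 3 (adjusted p = 0.561). Macrophages and dendritic cells of some kinds also express Cd4, and the values do not separate these cells.

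Lck (ENSMUSG00000000409, chr4:129548344-129573641), whose upstream stretch is printed above, encodes the kinase that starts T cell receptor signalling. It was 2.05, 1.34, 3.32 and 1.55 FPKM in the controls and 1.17, 0.952, 1.03 and 1.49 FPKM in the cKO libraries. Control replicate 2 was below cKO replicate 4, so the groups overlapped, and the log2 fold change was -0.47 (SE 0.18, limma adjusted p = 0.250), -0.29 without control replicate 3 and -0.18 without control replicates 1 and 3. Cd2, an adhesion molecule of T and NK cells, was 1.79, 0.83, 3.19 and 0.765 FPKM in the controls and 0.625, 0.488, 0.579 and 0.804 FPKM in the cKO libraries. Only control replicate 4 fell below the highest cKO library. Its log2 fold change was -0.61 (SE 0.25, limma adjusted p = 0.276), -0.36 without control replicate 3 and -0.15 without control replicates 1 and 3.

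Lat, the membrane adaptor that ZAP70 phosphorylates, was 0.876, 0.480, 2.44 and 0.558 FPKM in the controls and 0.393, 0.175, 0.273 and 0.331 FPKM in the cKO libraries. The groups did not overlap, and the log2 fold change was -0.61 (SE 0.24, limma adjusted p = 0.260), -0.34 without control replicate 3 and -0.23 without control replicates 1 and 3. Cd27, a TNF receptor family member of T, NK and memory B cells, differed from the others in its order, with 1.59, 1.12, 1.33 and 0.641 FPKM in the controls and 0.757, 0.547, 0.649 and 0.971 FPKM in the cKO libraries. It was the single T cell gene that was highest in control replicate 1 and not in control replicate 3 (log2 fold change -0.31, limma adjusted p = 0.335).

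The CD3 chains lie in 1 cluster, with Cd3d, Cd3e and Cd3g within 40056 bases of chromosome 9. Cd3d reached 2.56 FPKM and Cd3g 1.72 FPKM in control replicate 3, against cKO ranges of 0.167 to 0.504 and 0.148 to 0.527 FPKM, with adjusted p of 0.465 and 0.358 (limma). Cd3e and Cd247, the zeta chain, stayed under the filter, with 7 to 67 and 13 to 47 reads per library. An exon of Cd247 overlaps Pou2f1 on the other strand, which had up to 297 reads in a library, and without stated strand-specific counting the reads of the 2 genes cannot be told apart. Cd8a and Cd8b1, the coreceptor chains of cytotoxic T cells, reached 1.61 and 2.62 FPKM in control replicate 3 and 0.173 to 0.413 and 0.204 to 0.559 FPKM in the cKO libraries. Control replicates 2 and 4, at 0.222 and 0.205 FPKM for Cd8a, lay within that range, and without control replicates 1 and 3 the log2 fold change was 0.0713 for Cd8a and 0.0794 for Cd8b1.

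Zap70, the second kinase of the receptor pathway, and Il7r, the receptor for the T cell survival factor IL-7, were tested and had adjusted p of 0.441 and 0.553 (limma). Cd5, an inhibitory coreceptor, was 0.872 FPKM in control replicate 3 and 0.0738 to 0.200 FPKM in the cKO libraries. Cd28, the costimulatory receptor, had at most 6 reads in a library, and no difference was detectable at this depth. Over the 11 T cell genes tested the median log2 fold change was -0.47, and it was -0.21 without control replicate 3 and -0.11 without control replicates 1 and 3. For 12 of the 15 T cell genes the mean of control replicates 2 and 4 lay within the range of the cKO libraries, as it did for 2 of the 11 B cell genes.

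Granzymes had the highest levels of the 37 genes in the cKO libraries, and their order among libraries was another one. Gzmb (ENSMUSG00000015437, chr14:56258838-56262260), which encodes granzyme B, was 6.63, 7.48, 7.36 and 10.5 FPKM in control replicates 1 to 4 and 7.86, 3.97, 3.29 and 7.16 FPKM in cKO replicates 1 to 4. Its highest library was control replicate 4, where B cell genes were lowest among the controls. Gzmb had a log2 fold change of -0.50 (SE 0.24, limma adjusted p = 0.345), and -0.65 without control replicates 1 and 3. Gzma, for granzyme A, was 4.93, 4.94, 6.05 and 4.82 FPKM in the controls and 6.33, 3.25, 3.005 and 7.97 FPKM in the cKO libraries. The 2 highest libraries and the 2 lowest were all cKO, and the log2 fold change was -0.09 (SE 0.25, limma adjusted p = 0.893). Its sign turned when cKO replicate 2 (0.0565) or cKO replicate 3 (0.0855) was left out.

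Il2rb, the shared beta chain of the IL-2 and IL-15 receptors, was 6.47, 3.58, 3.94 and 4.08 FPKM in the controls and 4.02, 2.14, 2.41 and 4.40 FPKM in the cKO libraries. As with the granzymes, cKO replicates 2 and 3 were the 2 lowest libraries (log2 fold change -0.39, limma adjusted p = 0.408). Nkg7, a granule membrane protein of cytotoxic cells, was highest in control replicate 3 at 3.79 FPKM and 0.689 to 2.04 FPKM in the other 7 libraries (limma adjusted p = 0.667). Prf1 (perforin) and Klrd1 (the CD94 chain of NK receptors) were under the filter, at 0.292 to 0.804 and 0.180 to 0.799 FPKM, and Klrd1 was highest in cKO replicate 4.

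The receptors most specific to NK cells were almost absent. Ncr1 (NKp46) had 2, 3, 3 and 5 reads in the controls and 0, 0, 0 and 3 reads in the cKO libraries. Klrb1c (NK1.1) had 3, 3, 6 and 4 reads in the controls and likewise 0, 0, 0 and 3 reads in the cKO libraries. A count of 0 allows up to 3 reads, so the difference of either gene was not detectable library by library. The granzyme levels therefore stood beside only traces of these receptors, and which cells made the granzymes was not tested.

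Of the plasma cell genes, Jchain (chr5:88519809-88527891), which encodes the joining chain of secreted IgA and IgM, was 6.49, 2.52, 22.7 and 4.95 FPKM in control replicates 1 to 4 and 3.40, 3.01, 2.38 and 4.06 FPKM in cKO replicates 1 to 4. Control replicate 3 was 7.07 times the cKO mean, and control replicate 2 lay within the cKO range. For Jchain the log2 fold change was -0.91 (SE 0.49, limma adjusted p = 0.402), -0.37 without control replicate 3 and -0.14 without control replicates 1 and 3. Mzb1, a chaperone of antibody assembly, was 0.570, 0.0950, 0.540 and 0.175 FPKM in the controls and 0, 0.0499, 0.207 and 0.0886 FPKM in the cKO libraries, from 0 to 12 reads. It was high in the same 2 control libraries, under the filter and with overlapping groups.

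Ptprc (ENSMUSG00000026395, chr1:138062861-138175708), which all leukocytes express, was 2.15, 1.34, 2.07 and 1.04 FPKM in control replicates 1 to 4 and 1.502, 0.987, 0.698 and 1.11 FPKM in cKO replicates 1 to 4. Control replicates 1 and 3 were again the 2 highest libraries, but by far less than for the B cell genes, and control replicate 4 was within the cKO range. The log2 fold change was -0.34 (SE 0.17, limma adjusted p = 0.358), and -0.09 without control replicates 1 and 3.

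Over the genes tested, deviations from the group mean were correlated between control and cKO libraries. The correlations were weak, at 0.080 to 0.178 inside the sets of replicates 1 and 2 and of replicates 3 and 4. Between these sets they were -0.210 to -0.072. What the sets reflect was not tested, and differences were also taken inside each of them as a description. The median log2 difference of the B cell genes, all 11 included, was -0.32 in the first set and -0.71 in the other. For the T cell genes it was -0.25 and -0.49, and for the NK and cytotoxic genes -0.11 and -0.16. Each set holds 1 of the 2 control libraries with high B and T cell levels.

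Further genes of the same cell types, from lists beyond the 37, were mostly highest in the same library. Of 18 other B cell genes 13 were tested, of which 8 were lower and 0 higher at an unadjusted p under 0.05 and 0 at an adjusted one, and 16 of the 18 were highest in control replicate 3. Cd40, a costimulatory receptor of B cells, macrophages and dendritic cells, had the highest mean of this list, with 5.68 to 6.48 FPKM in control and 4.10 to 5.48 FPKM in cKO libraries, and the groups did not overlap (limma adjusted p = 0.109). Of 23 other T cell genes 9 were tested, with 5 lower, 0 higher and 0 at an adjusted p, and 22 were highest in control replicate 3. Trbc2, a constant region of the T cell receptor beta chain, was chosen after its values were seen and was 10.8, 6.59, 17.8 and 7.01 FPKM in the controls and 5.69, 3.85, 6.46 and 6.30 FPKM in the cKO libraries.

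The 11 other NK and cytotoxic genes held the one gene of the lymphocyte lists that was lower in cKO past adjustment. Ccl5, a chemokine of cytotoxic lymphocytes that epithelial and myeloid cells can also make, was 160, 138, 180 and 142 FPKM in the controls and 91.0, 103, 84.8 and 103 FPKM in the cKO libraries. The groups did not overlap, and the log2 fold change was -0.69 (SE 0.11, limma adjusted p = 0.0316) and -0.55 without control replicates 1 and 3. This call was lost whichever 1 of the 8 libraries was left out, with limma adjusted p of 0.0561 to 0.0881, while the log2 fold change stayed between -0.74 and -0.61. It was also lost without a filter (limma adjusted p = 0.0810) and without both control replicates 1 and 3 (0.239). At 84.8 FPKM and more, Ccl5 was far above Gzma and Gzmb in every library, and the other 3 genes tested of its list had no unadjusted p under 0.05.

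Antibody genes were also highest in control replicate 3. The 11 immunoglobulin constant genes summed to 184, 73.3, 947 and 106 FPKM in the controls and 70.5, 93.3, 58.1 and 119 FPKM in the cKO libraries. All 11 were highest in control replicate 3. Of these genes 2 were lower at an unadjusted p under 0.05, 0 higher and 0 at an adjusted p. Igkc, the kappa light chain and the highest of them, was 581 FPKM in control replicate 3 and 37.9 to 110 FPKM in the other 7 libraries. Ighd, the IgD chain that marks naive B cells, was 2.98, 0.486, 8.14 and 0.224 FPKM in the controls and 0.113 to 0.327 FPKM in the cKO libraries, and was chosen after its values were seen. Constant genes of the IgG subclasses are near copies of each other, and how their reads were divided is not stated.

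Of 9 other genes linked to plasma cells, 7 were tested, with 0 lower and 2 higher at an unadjusted p under 0.05. Xbp1, a secretory pathway factor that mammary alveolar cells also need, was 99.3 to 106 FPKM in control and 143 to 149 FPKM in cKO libraries (log2 fold change 0.48, SE 0.06, limma adjusted p = 0.0204). It was the highest gene of that list and the 1 past adjustment, and it stayed past it without cKO replicate 1 or 3 but not without any other single library (limma adjusted p of 0.0367 to 0.0844) or without both control replicates 1 and 3 (0.207), while its log2 fold change stayed between 0.46 and 0.49. This direction was opposite to that of Jchain, and the level was far above that of any lymphocyte gene named here except Ccl5 and Igkc.

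Genes of lymph node traffic and structure were examined for the same libraries. Ccr7, the receptor for lymph node chemokines and the highest of the 5 genes of this list, was 21.3, 14.3, 25.5 and 12.7 FPKM in the controls and 11.2 to 16.9 FPKM in the cKO libraries. Its 2 highest libraries were control replicates 3 and 1, and Lef1, a transcription factor of T cells, had the same first 2 libraries at 0.394 and 0.177 FPKM. Of this list 3 were tested, and 0 had an unadjusted p under 0.05. The list summed to 36.7 to 58.7 FPKM in control and 31.3 to 46.4 FPKM in cKO libraries.

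Of 9 genes of lymph node stroma and follicles 4 were tested, and their summed FPKM was 7.18 to 19.8 in control and 7.04 to 13.4 in cKO libraries. Ccl21a, a chemokine of lymph node stroma and lymphatic vessels, was 3.16, 2.15, 10.7 and 1.33 FPKM in the controls and 2.06, 1.21, 0.313 and 0.670 FPKM in the cKO libraries. It was again highest in control replicates 3 and 1 (log2 fold change -1.15, limma adjusted p = 0.272), and near copies of this gene exist. Ccl19 was listed at 0 in all 8 libraries. Cxcl13, the chemokine of follicles, was 2.70 FPKM in control replicate 3, 2.48 in cKO replicate 1 and 0.796 to 2.13 in the other 6 libraries. Chst4, of the high endothelial venules through which lymphocytes enter, was 0.262 FPKM in control replicate 3, 0.101 in control replicate 1 and at most 0.0233 in the others. Madcam1, a vascular addressin and the highest gene of the list, ran the other way, with 2.17 to 3.71 FPKM in control and 4.26 to 9.12 FPKM in cKO libraries and no overlap (limma adjusted p = 0.113). Control replicates 1 and 3 were the 2 highest libraries for 4 of these 9 genes (Ccl21a, Chst4, Fut7 and Cr2). Cr2 is also among the B cell genes. The same 2 libraries were highest for 3 of the 5 traffic genes, Ccr7 and Lef1 among them. The part of lymph node tissue in the B and T cell levels was not tested.

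Of 5 genes of lymphocytes that stay in tissue, control replicates 1 and 3 were the 2 highest libraries for 2 (Itgae and Cxcr6), and 4 were tested, with 1 lower (Cxcr6, limma adjusted p = 0.118) and 0 higher at an unadjusted p under 0.05. The list summed to 5.80 to 6.99 FPKM in control and 3.81 to 6.999 FPKM in cKO libraries, and cKO replicate 1 was level with control replicate 3. Itga1, the integrin subunit with the highest mean of the list, was 1.65 to 1.97 FPKM in control and 1.42 to 1.82 FPKM in cKO libraries.

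Other cells of the preparation also differed between libraries. Of 8 macrophage genes 5 were lower and 0 higher at an unadjusted p under 0.05 (0 adjusted), 7 were highest in control replicate 1, and the sums were 299.6 to 409 FPKM in control and 183 to 304 FPKM in cKO libraries, led by Lyz2 at 84.2 to 210 FPKM. The 7 other pan-leukocyte genes, with 4 lower, had control replicates 1 and 3 as their 2 highest libraries in 7 of 7, and summed to 33.3 to 77.3 FPKM in control and 20.9 to 36.5 FPKM in cKO libraries, led by Cd52. Of 5 endothelial genes 2 were lower, and they summed to 66.8 to 76.97 against 47.9 to 74.7 FPKM, led by Cdh5. Red cell genes, led by Hba-a1, summed to 22.5 to 30.0 against 14.5 to 28.0 FPKM, with 2 of 5 lower. Adipocyte genes were higher in cKO, with sums of 0.535 to 1.10 against 1.80 to 4.83 FPKM, and both tested genes, Cidec (limma adjusted p = 0.0377, and 0.0367 to 0.115 with 1 library left out, under 0.05 only without cKO replicate 1, 0.101 without a filter and 0.248 without both control replicates 1 and 3) and Adipoq, were higher at an unadjusted p under 0.05. Of the 7 epithelial genes 1 was lower at an unadjusted p under 0.05, Krt14, the keratin whose promoter drives the transgene, with 665 to 850 FPKM in control and 490 to 666 FPKM in cKO libraries (limma adjusted p = 0.209). The lowest sums of macrophage and endothelial genes, like the lowest of the NK and cytotoxic genes, were those of cKO replicate 3. The part of cell composition in the lymphocyte levels was not tested.

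**Figure D4:**
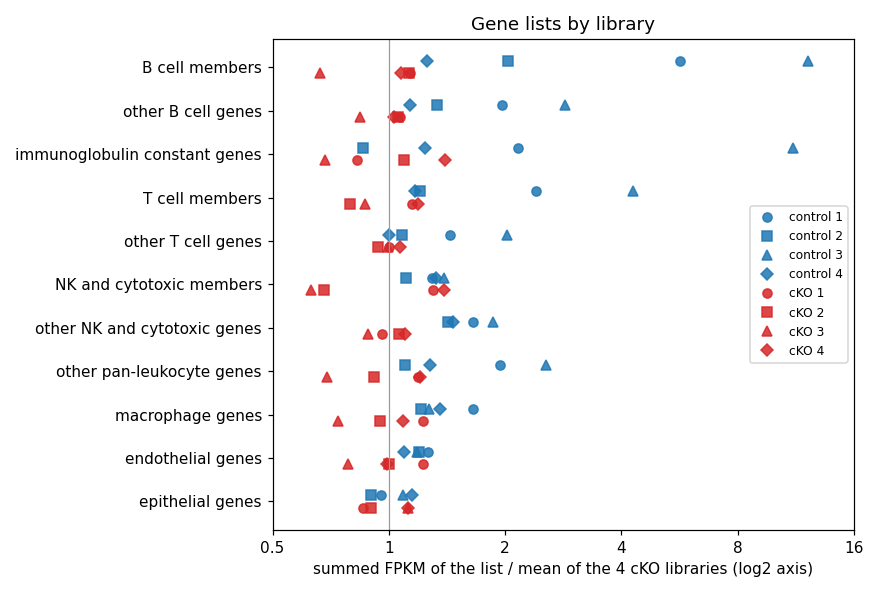
Summed FPKM of each gene list in each library divided by the mean of the 4 cKO libraries (horizontal axis, log2 scale; blue control, red cKO, symbols are replicates). Control replicates 3 (triangles) and 1 (circles) stand to the right for the B cell (12.2 and 5.69), T cell (4.29 and 2.40) and immunoglobulin lists (11.1 and 2.16), less for macrophage (1.27 and 1.65) and endothelial genes (1.18 and 1.26), and around 1 for epithelial genes (1.09 and 0.957).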

How the data were processed

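RNA-seq was performed on mammary epithelial preparations of 4 control and 4 cKO mice. Reads were aligned by the authors to GRCm38 (Hisat2), and the values they deposited are FPKM per gene. The submitters' notes name StringTie 1.3.3b and featureCounts 1.5.0-p3, and whether counting used strand is not given in the sources used here. The deposited FPKM already contained median-of-ratios size factors. FPKM times gene length was a whole multiple of 1 read for 100% of the values above 0 (tolerance 0.01), which gave the reads quoted. The identifiers matched GENCODE vM21, with 99.68% at the same coordinates, so coordinates are GRCm38.

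Groups were compared with limma 3.58.1 (R 4.3.3) on log2(FPKM + 1), with empirical Bayes, a trend and Benjamini-Hochberg adjustment over the 15143 genes with a mean of at least 0.5 FPKM. The members, lists and class medians carry no test of their own. Library values are given for Ptprc, the 3 highest genes of the B, T and NK classes, both plasma cell genes and genes with an unadjusted p under 0.05, and for each other list the highest gene. Exceptions are named, and some genes that this rule takes are not reported here. Of entries that share a name, the higher was used. The members, lists and rules were chosen with earlier results of these data known, and the motifs with the members known.

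The alternatives were another pseudocount, 2 other scalings, other filters, blocks, limma-voom on the recovered reads and libraries left out. The main fit was run on simulated reads with the same spread for all genes and no added differences between libraries. This checked the code and does not measure how the fit behaves for genes as variable as the B cell genes here. Libraries of a group differed by more than counting error (chi-square per degree of freedom of at least 8.17), so each was taken as a library of its own. A p measures the spread between mice of these groups. Intervals of counting are not given for FPKM, and a count of 0 allows 3 reads.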

Additional observations from a re-analysis of the deposited data

Results flagged for a closer look

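Among 82 groups of 4 libraries, 7 held a library that stood apart from the other 3 by Dixon's test at the 95% level, where chance gives about 1 in 20 (4.1 of 82). In 3 of the 7 the library was control replicate 3. Fcer2a, the CD23 receptor, was 1.95 FPKM there against 0.241 to 0.504 in the other controls. Nkg7 was 3.79 FPKM against 1.28 to 1.58, and Gzma was 6.05 FPKM against 4.82 to 4.94. The same library was thus high for a B cell gene and for both of these cytotoxic genes, with the smallest relative step for Gzma.

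The other 4 were in the cKO group. The B cell genes summed to 1.80 FPKM in cKO replicate 3 against 2.92 to 3.07 in the other cKO libraries. Ms4a1 was 0.0882 FPKM in cKO replicate 2, from 9 reads, against 0.00870 to 0.0167. Ncr1 was 0.105 FPKM and Klrb1c 0.0546 FPKM in cKO replicate 4, each from 3 reads, against 0 in the other 3 cKO libraries. The cause of these values was not tested.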

How the results depend on the processing

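Over 18 alternatives, 361 of 367 log2 fold changes of members kept a negative sign, and 1 had an adjusted p under 0.05. Gzma ranged from -0.30 to 0.0855 with 1 library left out, and reversed without cKO replicate 2 (0.0565) or 3. Without both control replicates 1 and 3, chosen after seeing the data, Cd8a (0.0713), Cd8b1 (0.0794), Il7r (0.0318) and Nkg7 (0.0209) reversed, the medians were -0.25 (B), -0.12 (NK) and -0.14 (plasma), 2 members and 1544 genes had an unadjusted p under 0.05, and 1 gene an adjusted one. Leaving out 1 library in turn gave 2 to 13 members and 2047 to 2515 genes at an unadjusted p, 0 to 78 genes at an adjusted p, and medians of -1.10 to -0.54 (B), -0.58 to -0.21 (T) and -0.44 to -0.21 (NK). With a pseudocount of 0.1 the medians were -1.56 (B), -0.98 (T) and -0.46 (NK). Without a filter, 10 genes had an adjusted p and the NK median was -0.15; at a mean of at least 1 FPKM, 4 of the 10 members tested and 2244 of 12923 genes had an unadjusted p. The ratio of summed FPKM gave -2.40 (B) and -1.18 (T). Limma-voom gave 252 genes at an adjusted p and medians of -1.72 (B) and -1.03 (T). No scaling moved the median of all genes by over 0.05. The causes were not tested.

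Same-numbered libraries correlated at 0.137, 0.110, 0.116 and 0.080, so the numbers were not taken as pairs. With the replicate block, 8 members and 3124 of all genes had an unadjusted p under 0.05 (7 and 2480 without it), 0 members an adjusted p, and 50 genes an adjusted p, with Ccl5 (0.0724) and Cidec (0.0727) no longer past it. With limma-voom and the replicate block, 16 members and 3389 genes had an unadjusted p and 1 member (Cd4, 0.0400, and 0.125 without the block) an adjusted p, with 680 genes, with medians of -2.11 (B) and -1.29 (T). A block of replicates 1 and 2 against 3 and 4 gave 442 genes at an adjusted p and 5 members and 3231 genes at an unadjusted one. Depth limits the 16 members under the filter, several of which rest on fewer than 10 reads.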
